A study of Mus musculus with 6 samples.

Results

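Forkhead genes encode transcription factors that share the forkhead DNA-binding domain. The 43 genes described here are the RefSeq protein-coding genes of mouse build mm10 (GRCm38.p6) named Fox, a letter from a to s and a number, except Foxf1, out of 21887 protein-coding genes. They fall into 19 subfamilies by letter. A gene was given every Runx1 peak that met its body or the 10 kb on either side, the rule for a gene "with a peak" throughout.

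Binding of Runx1 was mapped by ChIP-seq (sequencing of DNA that an antibody to Runx1 brings down from fixed chromatin) in GFP+ lung fibroblasts isolated from Col1a2-CreERT2;mTmG mice, in which a tamoxifen-inducible Cre driven by regulatory sequence of the collagen gene Col1a2 switches a membrane reporter from red to green, so that the marked cells are those in which that driver was active. All groups carry both alleles. The 3 groups were sham injury, day 14 after bleomycin given through the trachea (D14) and day 56 after it (D56), with 1 Runx1 ChIP library and 1 input library each. Bleomycin is a drug used to cause lung injury and scarring. The sources used here do not say how many mice went into a library, their age, or the day of the sham collection. With 1 library per group there was no replicate, no test and no p-value for any difference between groups, and intervals are 95% Wilson intervals that cover counting error only.

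Forkhead proteins act in different ways. FOXO proteins leave the nucleus when growth factor signalling through PI3K and AKT phosphorylates them, and otherwise drive cell cycle arrest and stress genes. FOXF and FOXL1 proteins act in lung and gut mesenchyme downstream of hedgehog signals, FOXA and FOXJ1 proteins in airway epithelium, and FOXM1 in dividing cells. FOXP3 of regulatory T cells is known to bind RUNX1 protein.

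The lists held 25052 sham, 56316 D14 and 15009 D56 peaks on the main chromosomes, from 48816721, 78744701 and 49669125 ChIP tags. The inputs held 39609538, 49312043 and 19949187 tags, so the D14 list came from the deepest pair and the D56 list from the shallowest input. Of 10 fibroblast marker genes, 9 had a peak in each library and Lum had none. Endothelial markers had peaks at 4 (sham), 6 (D14) and 4 (D56) of 6 genes, epithelial markers at 3, 5 and 1 of 7, leukocyte markers at 2, 4 and 2 of 6, and mesothelial markers at 0, 2 and 0 of 3. Of all protein-coding genes, 60.3% (sham), 73.3% (D14) and 53.7% (D56) had a peak. A peak does not measure expression, so these counts do not identify the cells, and the part of other cell types in the forkhead peaks was not tested.

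With no allowance for gene length, forkhead genes carried Runx1 peaks about as often as protein-coding genes in general, or somewhat less often. A peak was called at 23 of the 43 genes in sham (53.5%), where 60.3% of all protein-coding genes had one. At D14 the count was 31 (72.1%), beside 73.3% of all genes, and at D56 it was 22 (51.2%), beside 53.7%. Among the 10466 protein-coding genes between 2.88 and 27.2 kb, the lower and upper quartiles of forkhead gene length, the shares were 62.3%, 75.3% and 56.2%. That range leaves out the shortest and longest forkhead genes, so it does not match the 43 in length. Within length classes, given below, forkhead shares were above those of all genes under 5 kb and from 20 kb. Between 5 and 20 kb they were below. The higher D14 count went with the longer D14 list. When each list was limited to its 15009 strongest peaks, the counts were 21 (sham), 22 (D14) and 22 (D56), beside 52.5%, 56.7% and 53.7% of all genes.

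**Figure D1:**
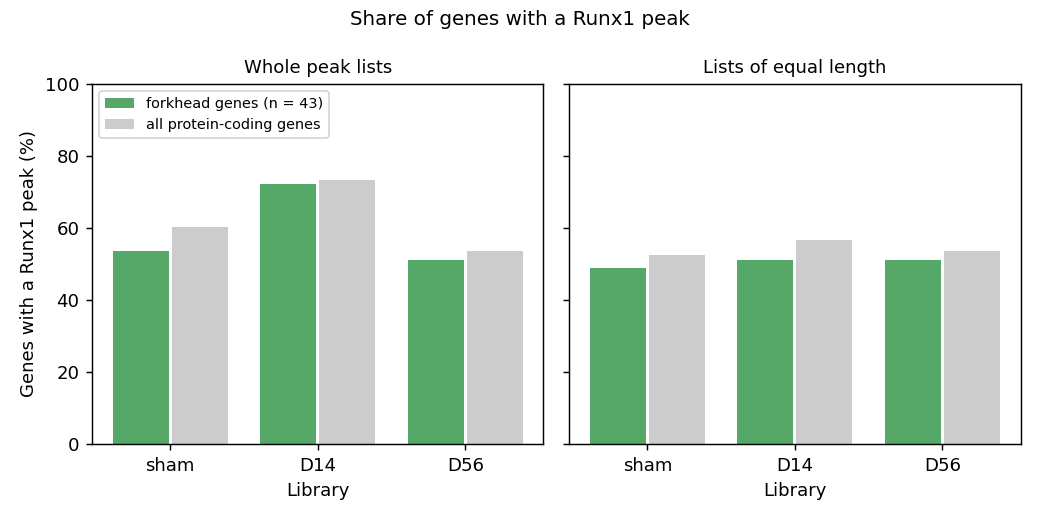
Percent of genes with a Runx1 peak in each library (x axis) for the 43 forkhead genes (green) and all 21887 protein-coding genes (grey), in the whole lists (left) and in lists of 15009 peaks each (right). Each green bar is below its grey neighbour; the green D14 bar, 72.1% in the whole lists, is level with D56 at 51.2% in lists of equal length.

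Peaks in all 3 libraries were called at 21 forkhead genes (48.8%, against 53.3% of all genes). They were both Foxk genes, all 3 Foxj genes, both Foxc genes, Foxn2, Foxn3, Foxo3, Foxo6, Foxp1, Foxp3, Foxp4, Foxa3, Foxd2, Foxf2, Foxh1, Foxl1, Foxm1 and Foxs1. Another 12 had none in any library (27.9%, against 26.6% of all genes). They include Foxa1 and Foxa2, regulators of endoderm and airway epithelium, Foxi1 of ionocytes, Foxd3 and Foxd4, and both Foxb genes. Peaks at D14 alone were called at 7 genes (16.3%, against 12.6%): Foxd1, Foxe3, Foxl2, Foxn1, Foxn4, Foxq1 and Foxr2. None of these 7 had a peak in any of the lists of equal length. Foxo1 and Foxo4 had peaks in sham and at D14 and none at D56 (4.65%, against 6.95% of all genes). Foxp2 had them at D14 and D56, the 1 forkhead gene with a D56 and no sham peak (2.33%, against 0.489% of all genes). With it, 8 forkhead genes had a D14 and no sham peak, against 13.1% of all genes.

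The forkhead windows held 59 distinct peaks (sham), 145 (D14) and 42 (D56). Windows of Foxc2 and Foxl1 meet on chromosome 8, so 2 sham, 3 D14 and 2 D56 peaks lie in both and were counted once. Peak number followed gene length: across the 43 genes the Spearman correlation was 0.46 (sham), 0.50 (D14) and 0.45 (D56), beside 0.29, 0.42 and 0.23 across all protein-coding genes. These points share 1 library each. Of the 21 forkhead genes under 5 kb, a peak was called at 7 (sham), 11 (D14) and 7 (D56) (33.3%, 52.4% and 33.3%, against 33.0%, 42.4% and 30.1% of all genes that short). Of the 8 from 5 to 20 kb, 5 (sham), 6 (D14) and 4 (D56) had one (62.5%, 75% and 50%). All genes of that length had 63.8%, 76.9% and 57.3%. Of the 14 forkhead genes of 20 kb or more, 11 (sham), 14 (D14) and 11 (D56) had one (78.6%, 100% and 78.6%). All genes that long had 71.6%, 86.4% and 63.2%.

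**Figure D2:**
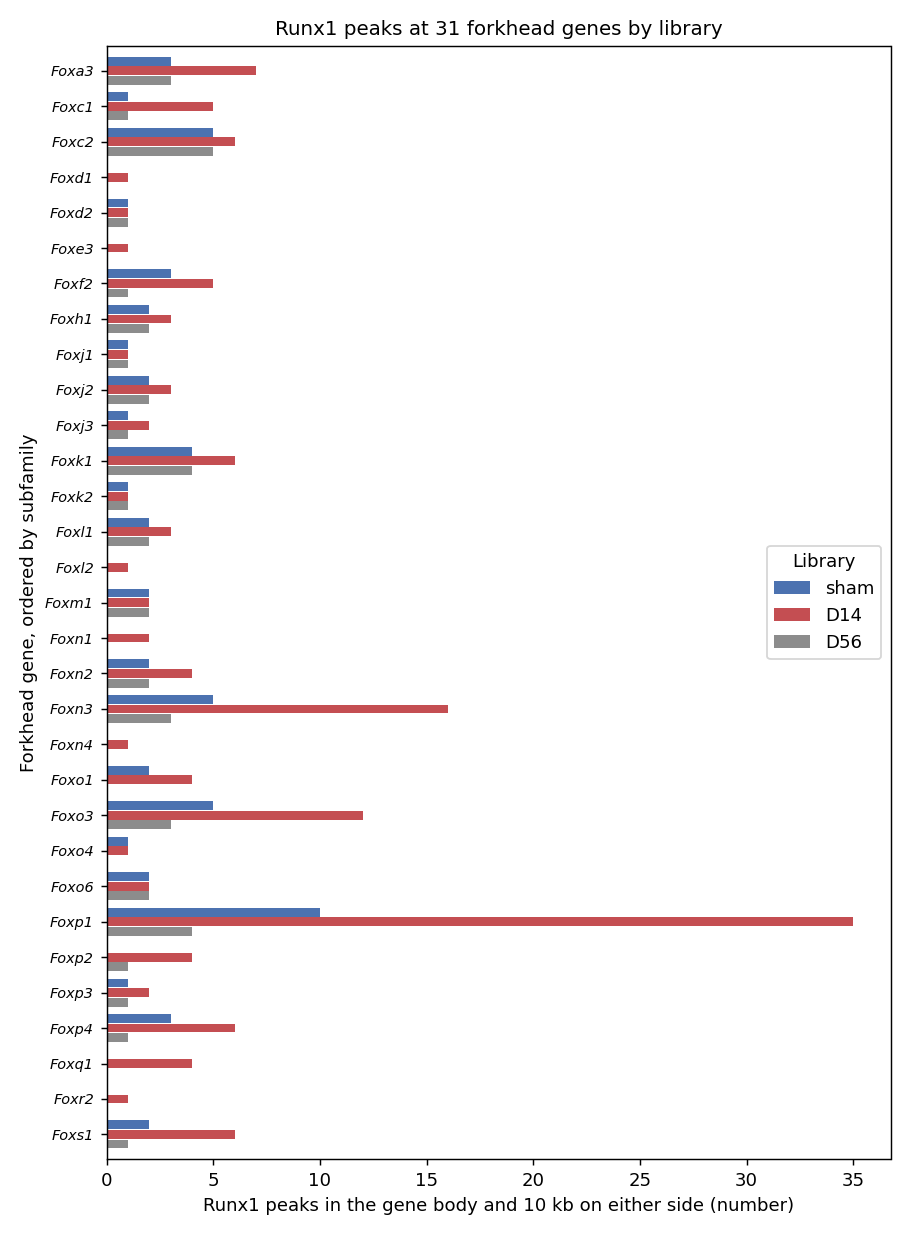
Number of Runx1 peaks (x axis) at each of the 31 forkhead genes with a peak (y axis, by subfamily), in sham (blue), D14 (red) and D56 (grey). Foxp1 reaches 35 at D14, and the genes Foxd2, Foxj1, Foxk2, Foxm1 and Foxo6 have the same number in every library.

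Promoter sequences, from 250 bases before to 50 bases after a RefSeq start, were listed for 28 of the 43 genes (33 promoters). They met a peak at 10 genes (sham), 12 (D14) and 7 (D56), or 11, 13 and 7 of the 33 promoters (33.3%, 39.4% and 21.2%), against 43.2%, 53.4% and 37.3% of 21263 promoters of protein-coding genes. Genes without a listed promoter include Foxc2, Foxh1, Foxj1, Foxk1, Foxl1, Foxm1, Foxn2, Foxo4, Foxo6 and Foxs1. Each had a sham peak with its summit within 1 kb of a gene end, so the shares do not stand for all 43 genes. The stretches that follow are the 250 bases before the start, 5′ to 3′ on the gene's strand (GRCm38.p6), with each CG dinucleotide in capitals. Foxk2, Foxj3 and Foxc1 are shown because theirs had the highest D14 folds, and the 4 Foxd genes because they range from a peak in every library (Foxd2) to D14 alone (Foxd1) and none (Foxd3 and Foxd4).
Foxk2 (chr11:121259737-121259986, plus strand): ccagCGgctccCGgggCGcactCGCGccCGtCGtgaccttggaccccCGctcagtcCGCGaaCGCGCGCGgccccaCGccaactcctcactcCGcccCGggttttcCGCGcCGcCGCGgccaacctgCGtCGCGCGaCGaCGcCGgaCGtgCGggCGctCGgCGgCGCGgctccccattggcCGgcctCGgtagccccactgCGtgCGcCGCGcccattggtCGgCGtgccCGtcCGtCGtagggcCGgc
Foxj3 (chr4:119539411-119539660, plus strand): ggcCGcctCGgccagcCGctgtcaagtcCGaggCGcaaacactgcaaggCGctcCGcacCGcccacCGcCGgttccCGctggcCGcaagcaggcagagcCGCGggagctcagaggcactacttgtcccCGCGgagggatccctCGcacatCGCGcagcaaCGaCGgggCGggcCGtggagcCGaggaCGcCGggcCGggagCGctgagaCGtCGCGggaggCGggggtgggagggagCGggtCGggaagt
Foxc1 (chr13:31806396-31806645, plus strand): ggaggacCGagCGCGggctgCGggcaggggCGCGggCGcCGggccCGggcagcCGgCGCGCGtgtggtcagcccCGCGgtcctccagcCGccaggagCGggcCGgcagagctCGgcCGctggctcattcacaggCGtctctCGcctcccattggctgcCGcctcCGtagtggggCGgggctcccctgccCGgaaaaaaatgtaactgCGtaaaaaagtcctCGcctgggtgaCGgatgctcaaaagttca
Foxd2 (chr4:114908899-114909148, minus strand): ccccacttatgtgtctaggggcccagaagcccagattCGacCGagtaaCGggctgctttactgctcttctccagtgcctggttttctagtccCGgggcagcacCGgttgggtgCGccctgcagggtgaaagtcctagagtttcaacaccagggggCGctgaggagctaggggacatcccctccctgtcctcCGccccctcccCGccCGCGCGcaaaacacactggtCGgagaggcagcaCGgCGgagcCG
Foxd1 (chr13:98353995-98354244, plus strand): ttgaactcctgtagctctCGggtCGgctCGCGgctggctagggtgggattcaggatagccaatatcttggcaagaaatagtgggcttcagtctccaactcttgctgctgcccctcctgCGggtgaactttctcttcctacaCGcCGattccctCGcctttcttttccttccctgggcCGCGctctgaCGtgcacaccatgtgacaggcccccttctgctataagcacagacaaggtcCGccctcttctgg
Foxd3 (chr4:99656049-99656298, plus strand): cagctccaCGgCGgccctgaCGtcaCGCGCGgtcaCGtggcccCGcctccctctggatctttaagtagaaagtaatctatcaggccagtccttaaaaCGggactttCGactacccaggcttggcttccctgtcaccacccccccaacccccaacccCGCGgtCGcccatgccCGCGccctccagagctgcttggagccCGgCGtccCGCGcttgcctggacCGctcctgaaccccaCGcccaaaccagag
Foxd4 (chr19:24901017-24901266, minus strand): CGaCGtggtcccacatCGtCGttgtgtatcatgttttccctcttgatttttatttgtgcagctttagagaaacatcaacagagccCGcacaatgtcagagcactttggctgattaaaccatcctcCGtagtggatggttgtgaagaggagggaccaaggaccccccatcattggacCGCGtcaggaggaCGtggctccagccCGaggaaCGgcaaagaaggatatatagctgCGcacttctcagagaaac

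CG dinucleotides were dense in the promoters that met a peak. The 13 forkhead promoters with a D14 peak held 13 to 59 of them in 300 bases (median 32), and the 20 without held 3 to 31 (median 11). The ranges overlap: Foxi3, with 31, and Foxd3, with 25, had no peak, while a Foxp1 promoter with 13 and that of Foxd1 with 15 had one. Over all promoters the medians were 22 with and 4 without a D14 peak, so the difference was not particular to forkhead genes. Within the printed 250 bases the numbers were 48 for Foxk2, 34 for Foxj3, 29 for Foxc1, 16 for Foxd2, 12 for Foxd1, 21 for Foxd3 and 12 for Foxd4.

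**Figure D3:**
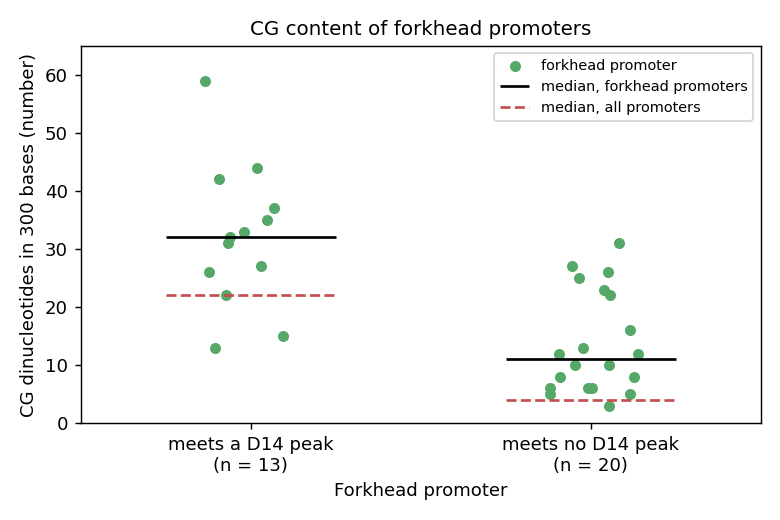
CG dinucleotides in 300 bases (y axis) for the 13 forkhead promoters that meet a D14 peak and the 20 that do not, each point a promoter, with the forkhead median (black) and the median of all promoters in that class (dashed red). Points of both classes overlap between 13 and 31.

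The letters TGTGGT or TGCGGT, forms of the core that RUNX proteins bind, were searched on both strands. They stood in 3 of the 33 forkhead promoters (9.09%), against 21.6% of all promoters. Of these 3, Foxc1 holds TGTGGT, 188 bases before the start, and met a peak in every library. The other two, each with TGCGGT, were a Foxp1 promoter, which met a sham and a D14 peak, and that of Foxn4, which met none. Among all promoters, 20.4% of those with a D14 peak and 22.9% of those without held either form. CCGGAA, a core bound by ETS factors, stood in 29.9% with and 5.84% without, and in 4 of the 33 forkhead promoters: Foxc1, Foxj3, Foxa2 and Foxr1. A match is a description of letters, not a binding site.

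Foxo genes encode the AKT-controlled branch. Foxo3 was among the most often called, with 5 peaks (sham), 12 (D14) and 3 (D56). In lists of equal length Foxo3 had 2, 2 and 3. Its highest D14 fold (the height of the ChIP signal over local background, the authors' own value per peak, used only within a list) was 21.7 at chr10:42277418-42278570, with the summit 1080 bp before the start. A second D14 peak over the start itself had a fold of 16.7 (chr10:42276350-42277109). In sham the 2 places were spanned by 1 peak (fold 11.1, chr10:42276171-42278394). At D56 they were 2 peaks, with folds of 11.998 and 9.59. Of the 12 D14 peaks, 6 had no sham overlap. Of these, 5 lay inside the gene, with folds of 2.60 to 7.89 and summits 7055 bp or more from the start.

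Foxo1, the family member best known in insulin signalling, had 2 sham peaks, 4 D14 peaks and 0 D56 peaks. The 2 D14 peaks at its start had folds of 11.9 and 10.9 (chr3:52268166-52268852 and chr3:52267666-52268104), and both met a single sham peak of fold 4.00035. Foxo4 likewise had 1 peak in sham (5.56), 1 at D14 (7.99) and 0 at D56. Foxo6 had 2 peaks in each library at the same places. The stronger of the pair, outside the gene with its summit within 1 kb of a gene end, had a D14 fold of 28.8 (chr4:120287392-120288301), higher than 98.8% of D14 peaks. Foxo1 and Foxo4 were the only forkhead genes with a sham peak and none at D56. Peaks in sham and at D14 but not at D56 were called at 4.65% of forkhead genes and 6.95% of all genes. The D56 list was the shortest, and in lists of equal length Foxo1 had 1 (sham), 2 (D14) and 0 (D56) peaks and Foxo4 had 1, 0 and 0.

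Foxp genes held 47 of the 145 D14 peaks. Foxp1, a repressor active in lung and lymphoid development, had 10 peaks (sham), 35 (D14) and 4 (D56), over a gene of 597 kb. Its D14 number was at or above that of 99.96% of protein-coding genes. That is 5.67 peaks per 100 kb of window at D14, where the 557 protein-coding genes over 300 kb had a median of 1.07 (quartiles 0.316 and 2.43). In sham the density was 1.62 (median 0.261) and at D56 0.648 (median 0.101). Of the 35 D14 peaks 26 had no sham overlap, and 25 of these lay over 1 kb from both gene ends. Over all genes 55.4% of D14 peaks had none, and 67.1% of those more than 1 kb from every gene end. In lists of equal length Foxp1 had 3, 5 and 4 peaks.

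Foxp1 peaks were called in every library at 4 places. These were around chr6:99446650-99447445 (D14 fold 12.5), chr6:99485104-99485804 (9.62), chr6:99327709-99328108 (7.93) and chr6:99523205-99523700 (7.09). The first 3 lie inside the gene and the fourth 705 bp outside its end. Other Foxp1 places were called in sham and at D14 and not at D56. Among them were promoters at chr6:99028249-99028548 (D14 fold 10.0) and chr6:99520944-99521243 (9.22). The highest D14 fold without a sham or D56 overlap at any forkhead gene was also in Foxp1, 11.8 at chr6:99479306-99479752 inside the gene. The 1 sham forkhead peak without a D14 overlap was here too (fold 2.86, chr6:99065744-99066007), beside a D14 peak that it did not meet (7.75, chr6:99066143-99066578).

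Foxp2, which acts in lung epithelium and brain, had 0 peaks (sham), 4 (D14) and 1 (D56). The D56 peak (fold 6.74, chr6:14900691-14900923) lay within a D14 peak of fold 9.65 (chr6:14900613-14900968), with both summits 528 bp outside the gene end. It was the only forkhead peak found at D14 and D56 without a sham overlap: of the 85 D14 forkhead peaks that met no sham peak, 1 was found at D56 (1.18%, interval 0.21 to 6.37), against 1.61% of 23091 such peaks at all protein-coding genes. In lists of equal length Foxp2 had 0 (sham), 1 (D14) and 1 (D56) peaks.

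Foxp4 had 3, 6 and 1 peaks in sham, D14 and D56, or 1, 2 and 1 in lists of equal length. Its start was covered at D14 (fold 11.95, chr17:47924275-47925331) and in sham (5.82) and not at D56, where the 1 peak lay 888 bp inside the gene. Foxp3, the master regulator of regulatory T cells, had 1, 2 and 1 peaks, with a D14 fold of 26.9 at chrX:7573958-7574911. No summit lay closer to the gene than 5269 bp. The first had its summit 120 bp from an end of Ppp1r3f at D14, and the second (15.7, chrX:7605229-7605554) 4 bp from an end of Ccdc22. That second place was also called in sham (5.91) and at D56 (7.64), by peaks that fell just outside the 10 kb window. Given to the nearest gene, Foxp3 had 0 peaks in each library.

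**Figure D4:**
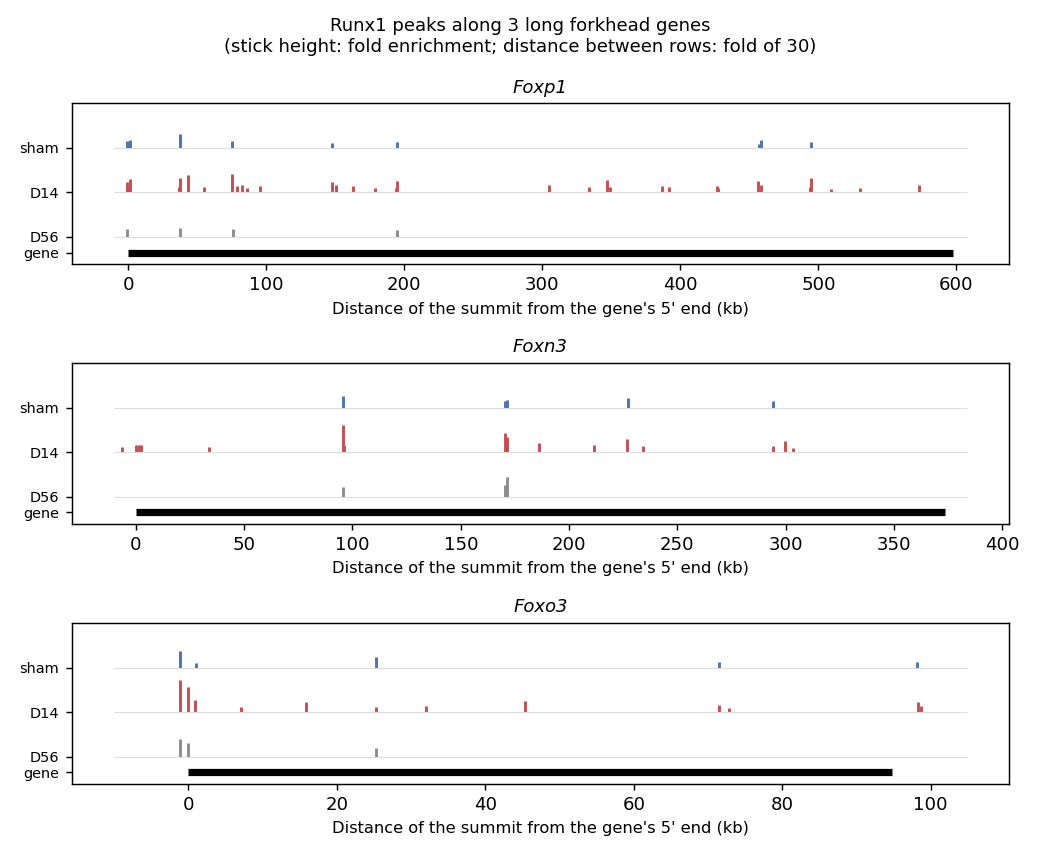
Runx1 peak summits by distance from the gene's 5′ end (x axis, kb) for Foxp1, Foxn3 and Foxo3 in each library (rows), with stick height the fold enrichment within that list and the gene as a black bar. The D14 rows hold 35, 16 and 12 sticks, and the D56 rows 4, 3 and 3.

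Foxn, Foxk and Foxj genes include regulators of the cell cycle and metabolism, Foxn1 of the thymus and Foxj1 of ciliated cells. Foxn3, a cell cycle checkpoint factor, had 5 sham, 16 D14 and 3 D56 peaks over 374 kb, or 1.27, 4.07 and 0.762 per 100 kb. The 3 places called at D56 were called in every library and all lay inside the gene, 2 of them within 1 kb of an end of Gm51999, a gene model within Foxn3. The highest D14 fold there was 18.4 (chr12:99467843-99468584). The annotated outer end of Foxn3 had a D14 peak alone (5.28). Foxn2 had 2, 4 and 2 peaks. A D14 peak of fold 27.6 lay at its lower-coordinate end (chr17:88440204-88441363) and one of 18.7 inside it (chr17:88462707-88463202), and both places were called in every library. In lists of equal length Foxn3 had 4, 3 and 3 peaks and Foxn2 had 2, 2 and 2. Foxn1 had 2 D14 peaks (folds 4.82 and 2.94) and Foxn4 had 1 (4.84), with none in sham or at D56.

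Foxk1 and Foxk2, which encode repressors of starvation and autophagy genes, had peaks in every library. Foxk1 had 4, 6 and 4 peaks, or 4, 4 and 4 in lists of equal length. It had the highest D14 fold at any forkhead gene, 31.8 at chr5:142440137-142441020 inside the gene. Its 6 D14 folds went down to 3.94, higher than 17.2% of D14 peaks. The place of the highest also had the highest Foxk1 fold at D56 (16.8). In sham, by contrast, the highest was 14.2, at a place 1930 bp outside Foxk1 and inside its neighbour Ap5z1. The D14 fold at that place was 27.99. Foxk2 had 1 peak in each library, over its start, with folds of 14.97 (sham), 27.98 (D14, chr11:121259596-121260232) and 14.9 (D56). These stood above 99.3%, 98.6% and 95.2% of the peaks of their lists.

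Foxj3 had 1, 2 and 1 peaks, with a D14 fold of 19.8 at its start (chr4:119539021-119540131). Foxj2 had 2, 3 and 2, with the strongest (22.05 at D14, chr6:122810671-122811633) lying 9172 bp before the start and 8649 bp from Slc2a3, a glucose transporter gene. Foxj1, the ciliogenesis factor, had 1 peak in each library at a gene end, with folds of 3.57 (sham), 12.1 (D14) and 5.95 (D56). Among the 15009 strongest peaks of each list it was called at D14 and D56 and not in sham. Foxf2, Foxj1 and Foxp2 had that pattern (6.98% of forkhead genes, against 3.07% of all genes).

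Foxc1 and Foxc2 act in mesoderm and vessels. Foxc1 had 1 peak in sham (fold 11.5), 5 at D14 and 1 at D56 (5.66), and the D14 peak over the start had a fold of 18.3 (chr13:31806250-31806808). The 4 other D14 peaks had folds of 4.06 to 9.17. Foxc2 had 5, 6 and 5 peaks, but the strongest at D14 (19.8, chr8:121107990-121108595) lay inside Mthfsd, 30 bp from its end and 7788 bp from Foxc2. The peak at the end of Foxc2 itself had folds of 6.08 (sham), 4.70 (D14) and 6.98 (D56). In lists of equal length Foxc1 had 1, 1 and 1 peaks and Foxc2 had 4, 3 and 5. Foxl1, a marker of hedgehog-responsive mesenchyme, had 2, 3 and 2 peaks. The strongest at D14 lay between the 2 genes (10.0, chr8:121125281-121125896).

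Foxf2, the relative of Foxf1 in mesenchyme, had 3, 5 and 1 peaks, with the D14 peak over its start at 16.8 (chr13:31625419-31626156). The sham peak there had a fold of 3.81 and the D56 peak one of 4.30. Among the 15009 strongest peaks Foxf2 was called at D14 and D56 and not in sham, as were 3.07% of all genes. Foxs1, expressed around vessels, had 2, 6 and 1 peaks with folds of no more than 6.94, and in lists of equal length 2, 0 and 1. Foxd2 had 1 peak in each library (5.27, 14.9 and 5.91), while Foxd1, a marker of stromal progenitors, had 1 at D14 over its start (4.24).

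Foxq1, of the same chromosome 13 group as Foxf2 and Foxc1, had 0 peaks (sham), 4 (D14) and 0 (D56). The strongest lay over the lower-coordinate end of the gene (fold 8.40, chr13:31557988-31558457), higher than 71.98% of D14 peaks. It was the highest fold among the 7 genes called at D14 alone. The other 6 had highest folds of 3.83 to 4.84. Of the 3 genes, Foxf2 and Foxc1 had a peak over the start in every library.

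For several of the remaining members the called place belonged as much to a neighbour. Foxm1, the mitotic factor, had 2 peaks in each library. One lay 29 to 35 bp from an end of Tulp3 (D14 fold 15.4) and the other where Foxm1 and Rhno1 adjoin (10.6). Foxh1, a SMAD partner in TGF-beta family signalling, had 2, 3 and 2 peaks, the strongest at D14 (18.0, chr15:76671422-76671865) with its summit 18 bp from Foxh1 and 47 bp from Ppp1r16a. Foxa3 had 3, 7 and 3 peaks, of which the strongest (13.3 at D14) lay 108 bp from Sympk. In lists of equal length it had 2, 3 and 3. A D14 peak of fold 5.24 lay 17 bp from the Foxa3 start. The Foxr2 peak (3.83) lay in Rragb, and the Foxe3 and Foxl2 peaks were single D14 peaks of 4.08 and 4.84. In all, 15 of 59 sham, 25 of 145 D14 and 13 of 42 D56 forkhead peaks had a summit closer to an end of another protein-coding gene. With each peak given to its nearest gene alone, a peak was called at 20 (sham), 28 (D14) and 19 (D56) forkhead genes, beside 50.2%, 65.5% and 42.7% of all genes.

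D14 was then compared with sham peak by peak, to ask which D14 forkhead peaks had no counterpart in the shorter sham list. Of the 145 D14 forkhead peaks 85 had no sham overlap of 1 bp or more (58.6%, interval 50.5 to 66.3), against 55.4% of 41645 D14 peaks at protein-coding genes. The share differed by place. Within 1 kb of any protein-coding gene end, 15 of 50 lacked a sham overlap (interval 19.1 to 43.8%), against 32.0% over all genes. Further away, 70 of 95 did (73.7%, 64.0 to 81.5), against 67.1%. In lists of equal length 10 of 43 D14 forkhead peaks lacked a sham overlap (23.3%), against 22.7% of all peaks at genes.

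By subfamily, the D14 peaks without a sham overlap are set beside 55.4% over all genes and 67.1% over peaks more than 1 kb from every gene end. Of the D14 peaks, 34 of 47 at Foxp genes (72.3%, 58.2 to 83.1) and 16 of 23 at Foxn genes (69.6%, 49.1 to 84.4) had no sham overlap. At Foxo genes it was 7 of 19 (36.8%, 19.1 to 59.0), at Foxk genes 2 of 7 (28.6%, 8.22 to 64.1), at Foxj genes 2 of 6 (33.3%, 9.68 to 70.0) and at Foxm1 0 of 2. At Foxc genes it was 5 of 11, at Foxa3 4 of 7, at Foxs1 4 of 6, at Foxf2 2 of 5, at Foxl genes 2 of 4, at Foxh1 1 of 3 and at Foxd genes 1 of 2. The D14 peaks in the windows of both Foxc2 and Foxl1 are counted in both subfamilies here. All 4 Foxq1 peaks and the single Foxe3 and Foxr2 peaks had no sham overlap. The intervals of the Foxp and Foxo genes overlap slightly. Foxp1, of 597 kb, held 35 of the 47 Foxp peaks and 26 of the 34 without a sham overlap. Foxn3, of 374 kb, held 16 of the 23 Foxn peaks and 11 of the 16 without a sham overlap. The Foxp and Foxn genes have median lengths of 299.1 and 39.5 kb, the Foxo genes one of 51.0 kb, and peaks of 1 gene are not independent of each other.

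The D14 forkhead peaks that recurred had higher median folds, with overlapping ranges. The 42 with both a sham and a D56 overlap had a median D14 fold of 13.6, the 18 with a sham overlap alone 7.04, and the 84 with neither 4.31, none of them above 11.8. Of the 84, 56 lay inside the forkhead gene over 1 kb from its ends, 15 in the flanks and 13 within 1 kb of an end. Of the 42, 19 lay within 1 kb of an end. The same values over D14 peaks at all genes were not computed, so no trait particular to forkhead genes is shown.

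**Figure D5:**
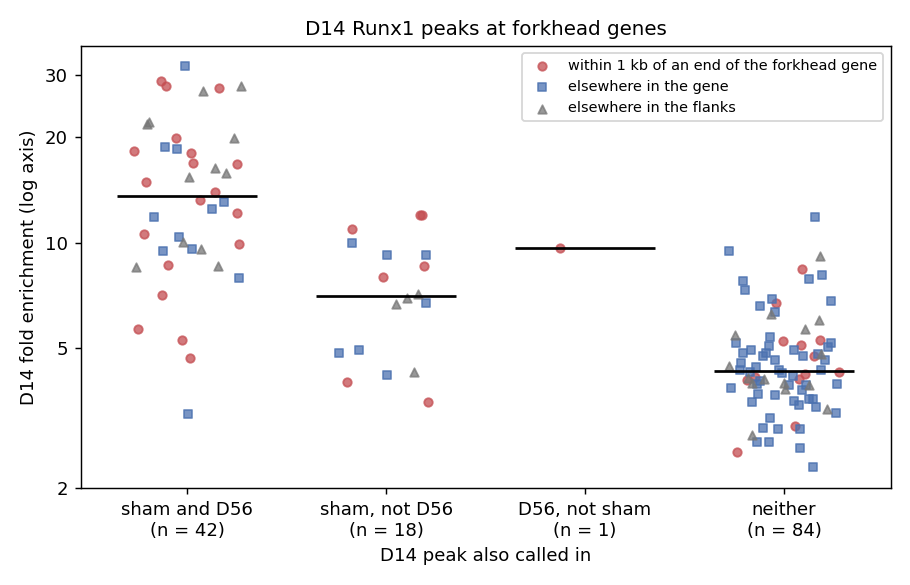
D14 fold enrichment (y axis, log) of the 145 D14 peaks at forkhead genes by the libraries in which they were also called (x axis), with marker and colour for the place and the median as a line. The 84 peaks called in neither other library have folds from 2.29 to 11.8, and the 42 called in both from 3.24 to 31.8.

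D56 was compared with D14 and sham to ask which forkhead binding was called late. All 42 D56 forkhead peaks overlapped a D14 peak (interval 91.6 to 100), against 99.6% of D56 peaks at all genes, and 41 of them overlapped a sham peak. The exception was the Foxp2 peak. Of the D14 forkhead peaks 43 were found at D56 (29.7%, 22.8 to 37.5; 29.4% over all genes), and of those with a sham overlap 70.0% (57.5 to 80.1; 63.9%). Of the 59 sham forkhead peaks 58 overlapped D14 (98.3%, 91.0 to 99.7; 92.8%) and 40 were found at D56 (67.8%, 55.1 to 78.3; 59.6%). In lists of equal length 37 of 43 D14 forkhead peaks were found at D56 (86.0%, against 79.5% over all genes).

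Genes of the pathways around the forkhead proteins, counted by the same window rule and not matched to the forkhead genes in length, were called at most members. Over all protein-coding genes the shares with a peak were 60.3% (sham), 73.3% (D14) and 53.7% (D56), and no list was tested against them. Genes of the PI3K-AKT control of FOXO proteins had a peak at 19 of 19 in each library, with 49 (sham), 108 (D14) and 38 (D56) peaks, led at D14 by Pik3ca, a catalytic subunit of PI3K (fold 30.9), the insulin receptor Insr (29.5) and the kinase Stk4 (28.6). Genes known as FOXO targets had peaks at 17, 18 and 15 of 18, led by the apoptosis gene Bcl2l11 (27.2), Gadd45a (26.4) and the metabolic kinase Pdk4 (26.4). Hedgehog genes had peaks at 10, 12 and 9 of 13, led by Cdon (31.3), Gli3 (27.5) and the receptor Ptch1 (26.99), with Gli2 holding 7, 23 and 6 peaks. Genes known as FOXM1 targets had peaks at 8, 10 and 8 of 10, led by Cenpf (20.9), Ccnb1 (19.7) and Aurkb (18.2). FOXP partners had them at 8, 9 and 8 of 9, led by the co-repressor gene Ctbp1 (29.6), Hdac1 (21.6) and Runx1 itself (20.2). In lists of equal length the PI3K-AKT genes were still called at 19 of 19 in each library and the hedgehog genes at 10, 9 and 9 of 13, beside 52.5%, 56.7% and 53.7% of all genes.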

How the data were processed

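Runx1 ChIP and input DNA from lung fibroblasts was sequenced in 6 libraries, and the 3 lists of ChIP peaks were analysed. BWA, SAMtools, MACS2 and build mm10 are named per the submitters' processing notes. Per the file headers, MACS 2.0.10.20120913 called the peaks of each ChIP library over the input of the same condition at a q-value cutoff of 0.01, scaling the larger set to the smaller, with nothing pooled. Per the file headers, each peak has a pileup (the ChIP signal at the summit), a −log10 p-value and −log10 q-value, and a fold enrichment over local background. These folds and pileups are the authors' deposited values, made for each library apart and on no common scale, and were used to describe, rank and filter peaks within a list. For trimming and alignment, settings were not given in the sources used here.

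Samples were grouped by title. Peaks of chromosomes 1 to 19 and the sex chromosomes were joined to RefSeq genes of GRCm38.p6, the patched mm10 assembly, leaving out 7 sham and 15 D14 peaks elsewhere. A peak counted for a gene when it met the body or 10 kb on either side, and peaks of different libraries were shared when they overlapped by 1 bp or more. The gene table gives no exons or strand, so a place inside a gene may be exonic or intronic, and "gene end" means either annotated end. Peak sequences were not used here. The counting steps were tested on simulated data. Python 3.11.15, pandas 2.3.3, numpy 2.4.6, scipy 1.17.1 and matplotlib 3.10.9 were used. Intervals are Wilson 95% intervals.

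With 1 library per condition no test was made. The members and gene lists were chosen with earlier results of these data known. Genes were described with positions by rule: the 12 members with the most peaks, those called in every library, those with more peaks in sham or at D56 than at D14, those holding the 10 highest D14 folds or a peak at D14 and D56 without a sham overlap, and up to 3 genes of each companion list by D14 fold. In the whole lists no member had more peaks in sham or at D56 than at D14. Foxo1, Foxo4, Foxq1, Foxd1, Foxn1, Foxn4, Foxe3, Foxl2, Foxr2 and Gli2 fall outside the rule and were described after their values were seen. Alternatives were a −log10 q or a fold of 5 or more, lists of 15009 peaks each (the strongest by −log10 p), a window of 2.5 kb, the nearest gene, a reciprocal overlap of 50%, summits within 200 bp, genes of like length, joined windows and, chosen after seeing the data, a window of 1 kb. Not every member is named, since 1 item is not reported here.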

Additional observations from a re-analysis of the deposited data

How the results depend on the processing

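In lists of 15009 peaks each, distinct forkhead peaks numbered 38 in sham and 43 at D14, the share of D14 peaks without a sham overlap was 23.3%, that of D14 peaks found at D56 86.0%, that of sham peaks with a D14 overlap 78.9% and that of sham peaks found at D56 84.2%. With a fold of 5 or more there were 33 sham and 78 D14 peaks, and those shares were 42.3% (D14 found at D56), 90.9% (sham with D14) and 78.8% (sham found at D56). A reciprocal overlap of 50% gave 19.3%, 86.4% and 49.2% for the same 3 shares, and a −log10 q of 5 or more gave 100% for sham peaks with a D14 overlap. The cause was not tested. Of the recomputed values 160 stayed within the stated tolerance, 1.5 times for a count and the main interval for a share, and 18 moved, 3 of them the percentages of like-length genes. Counts of forkhead genes, subfamilies and companion genes stayed within it under each alternative run, the 1 kb window chosen after seeing the data included. That tolerance is wide. In lists of equal length the D14 gene count fell from 31 to 22, the same as at D56, and still stayed within it. With a fold of 5 or more, 46.5% (sham), 58.1% (D14) and 41.9% (D56) of forkhead genes had a peak, against 48.1%, 68.7% and 49.7% of all genes. With a −log10 q of 5 or more the shares were 53.5%, 69.8% and 44.2%, against 58.9%, 72.4% and 51.3%.

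No paired analysis was possible because each condition has 1 library. Depth, input depth and condition cannot be told apart, and a place without a peak was not called at that depth, which does not show that Runx1 was absent.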
